A study of Mus musculus with 35 samples.

Results

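The regions described here are 331 of 177904 open chromatin regions (0.186%) of mouse hepatocytes that carried little signal in livers of control animals and gained signal in cachexia induced by 2 different tumors. They were chosen from the measured values themselves. The mean signal had to be under 5 in C26 PBS and in 8025 PBS, and 12 or more in C26 cachexia and in 8025 cachexia. Signal is the number of sequenced tags in a window of 400 bp, scaled to 10 M tags per library, and is called scaled tags below. The differences between cachexia and PBS in those 4 groups are therefore given as a description, without a test, and tests are given only between groups that the choice did not use.

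Cachexia-inducing tumor cells (C26 or 8025), or cells whose tumors leave body weight stable (NC26 or MC38), were implanted in mice of the genotype CAG-Sun1/sfGFP, Albumin-Cre. In every group Cre under the albumin promoter limits the tagged nuclear envelope to albumin-expressing cells, so that hepatocyte nuclei can be pulled out of whole liver before ATAC-seq, an assay in which a transposase cuts accessible DNA. The groups were C26 PBS, C26 pre-cachexia and C26 cachexia (BALB/c, n = 4 each), 8025 cachexia (C57BL/6N, n = 4) and 8025 PBS (C57BL/6N, n = 3), NC26 tumor and NC26 PBS (BALB/c, n = 4 each), and MC38 tumor and MC38 PBS (C57BL/6N, n = 4 each). Livers were taken at ZT 9, and the cachexia groups once more than 10% of body weight was lost. Each library has an animal of its own in the labels, and a p-value here stands for the spread between animals. The sources used here do not give ages, sexes or days after implantation. Cohort, strain and tumor line go together, which limits comparisons across cohorts.

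Accessible chromatin outside promoters is mostly enhancer DNA, where transcription factors bind and where nucleosomes are displaced. In the liver, inflammatory cytokines such as IL-6 act through STAT3, NF-kB and C/EBP factors to switch on acute-phase genes, whose products are secreted into blood. Fasting and glucocorticoid signals act on a different set of genes, including Igfbp1. In cancer cachexia the liver is known for an acute-phase response, and loss of food intake and of peripheral tissue changes the hormones that reach it.

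NC26 tumor replicate 1 was shallow, at 3.47 M tags, and the other 34 libraries held 11.3 to 23.8 M. In the shallow library 1 read end is worth 1.44 scaled tags and 55 of the 331 regions were at 0. Over the promoters of 10 hepatocyte marker genes with a region there, mean signal was 89.2 to 167 scaled tags per library. The albumin promoter averaged 279. The 419 regions nearest to 11 of 12 hepatocyte marker genes, promoters or not, averaged 21.2 to 37.2 per library. On that same measure the 35 regions of 5 of 10 lymphocyte marker genes averaged 25.8 to 39.7. The level over all nearest regions therefore did not set hepatocyte genes apart from lymphocyte genes. No lymphocyte marker gene had a region within 1 kb of its start, so the lymphocyte level comes from regions away from starts. It has no counterpart to the hepatocyte promoter level. The 34 regions of 8 of 12 macrophage marker genes averaged 6.43 to 8.01 in C26 cachexia libraries, against 5.93 to 7.29 in C26 PBS. They averaged 10.4 to 14.2 in 8025 cachexia, against 6.86 to 7.90 in 8025 PBS. The 26 regions of 8 of 10 neutrophil marker genes averaged 13.7 to 15.4 in C26 cachexia libraries, against 8.20 to 11.7 in C26 PBS. They averaged 12.0 to 16.5 in 8025 cachexia, against 9.75 to 10.7 in 8025 PBS. No macrophage or neutrophil marker promoter with a region was at 0 in its mean over libraries: the macrophage genes Adgre1 and C1qa averaged 3.56 and 5.19, and the neutrophil genes S100a8 and Elane 5.98 and 41.6. Promoters of 5 cholangiocyte marker genes averaged 16.9 to 20.5 in C26 cachexia, against 11.2 to 16.9 in C26 PBS. They averaged 22.1 to 30.2 in 8025 cachexia, against 15.2 to 23.8 in 8025 PBS. Over all 78 nearest regions of 8 cholangiocyte marker genes, cachexia and PBS overlapped: 12.7 to 13.7 against 11.3 to 14.3 in C26. In 8025 these regions averaged 15.1 to 18.6 in cachexia, against 12.9 to 16.97 in PBS. Promoters of 4 stellate cell marker genes averaged 13.4 to 17.8 in 8025 cachexia, below 18.4 to 22.8 in 8025 PBS, and overlapped in C26. Promoters of 2 endothelial marker genes overlapped in both cohorts. None of the 331 regions had a gene of these lists, or of the endothelial, stellate, cholangiocyte or lymphocyte lists, as its nearest gene. The part of other cells in the levels below was not tested. In bulk libraries, more nuclei with an open region and a more open region in each nucleus cannot be told apart.

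Of all regions, 32613 had PBS means under 5 in both cohorts, and these low regions serve as the comparison group below. Among them, 519 reached 12 in C26 cachexia and 1638 in 8025 cachexia, so the 331 regions were 63.8% of the first set and 20.2% of the second. The thresholds cut through a continuous range. The last mean inside and the first outside, with the other 3 limits met, were 4.98 and 5.015 in C26 PBS, 4.99 and 5.01 in 8025 PBS, 12.0175 and 11.945 in C26 cachexia, and 12.0 and 11.975 in 8025 cachexia. Regions that missed 1 limit alone by less than 1 scaled tag numbered 58, 97, 56 and 23 in that order.

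The sequences shown are those where a chosen region covers part of the 250 bases before an annotated start site, as most of the 331 regions lie far from one. They come from RefSeq (GRCm38.p6, the assembly also called mm10), run 5′ to 3′ on the gene's strand and end at the base before the start. Slc10a6 encodes a steroid sulfate transporter, Osmr the oncostatin M receptor, Cxcl14 a chemokine and Ntf3 neurotrophin-3. Gm33424 is a predicted gene whose start lies inside a region assigned to Nfil3, a repressor of transcription that takes part in the circadian clock. Gm52825 is a predicted gene with 2 annotated starts inside a region assigned to Ssh1, which encodes a phosphatase that acts on cofilin, and the window of the second start is shown. Capitals mark matches, on either strand, to the motif letters searched. Gm33424 and Gm52825 lie on the plus strand and the other genes on the minus strand.
Slc10a6, chr5:103629404-103629653: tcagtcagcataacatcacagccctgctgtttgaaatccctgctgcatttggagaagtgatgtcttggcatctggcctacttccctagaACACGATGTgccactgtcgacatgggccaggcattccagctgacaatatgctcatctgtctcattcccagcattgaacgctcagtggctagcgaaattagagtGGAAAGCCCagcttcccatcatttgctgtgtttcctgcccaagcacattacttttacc
Osmr, chr15:6874314-6874563: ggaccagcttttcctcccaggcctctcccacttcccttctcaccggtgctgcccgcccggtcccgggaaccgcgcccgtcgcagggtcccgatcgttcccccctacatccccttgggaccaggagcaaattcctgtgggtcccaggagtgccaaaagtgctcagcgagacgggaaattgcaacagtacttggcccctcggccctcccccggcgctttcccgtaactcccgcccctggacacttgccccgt
Cxcl14, chr13:56296552-56296801: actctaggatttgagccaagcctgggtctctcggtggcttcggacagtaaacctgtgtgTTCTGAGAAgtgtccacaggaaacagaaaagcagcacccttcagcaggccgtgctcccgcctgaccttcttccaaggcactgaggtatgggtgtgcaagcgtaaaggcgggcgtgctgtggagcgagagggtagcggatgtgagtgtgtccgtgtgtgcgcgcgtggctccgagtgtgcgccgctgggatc
Ntf3, chr6:126164961-126165210: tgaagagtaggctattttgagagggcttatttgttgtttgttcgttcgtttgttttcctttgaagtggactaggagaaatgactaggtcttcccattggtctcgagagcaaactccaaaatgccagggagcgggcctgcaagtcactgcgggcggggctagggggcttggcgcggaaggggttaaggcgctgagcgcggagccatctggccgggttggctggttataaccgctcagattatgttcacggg
Gm33424, chr13:52985715-52985964: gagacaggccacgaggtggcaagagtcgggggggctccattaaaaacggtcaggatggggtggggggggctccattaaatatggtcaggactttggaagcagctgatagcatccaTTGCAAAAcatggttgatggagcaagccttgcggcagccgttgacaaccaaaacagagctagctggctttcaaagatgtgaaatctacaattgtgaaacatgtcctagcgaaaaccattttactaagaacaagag
Gm52825, chr5:113989644-113989893: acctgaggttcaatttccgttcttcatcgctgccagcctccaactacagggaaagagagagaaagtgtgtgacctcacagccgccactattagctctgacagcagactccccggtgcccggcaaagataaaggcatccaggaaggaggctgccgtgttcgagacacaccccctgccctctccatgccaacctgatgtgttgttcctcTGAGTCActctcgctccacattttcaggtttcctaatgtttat

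Matches were searched for STAT (TTCNNNGAA), AP-1 (TGANTCA), C/EBP (TTGCNNAA), the glucocorticoid receptor (ACANNNTGT), HNF4 (CAAAGTCCA), FOXA (TGTTTAC), HNF1 (GTTAATNAT), a direct repeat of nuclear receptors (GGNCAAAGG) and NF-kB (GGNNNTTCC) in windows of 300 bases, 250 before and 50 after the start. The Slc10a6 window held a glucocorticoid receptor match at −161, outside the chosen region, and an NF-kB match at −58, inside it. The Cxcl14 window held a STAT match at −191, outside the chosen region. The Gm33424 window held a C/EBP match at −135, inside the region assigned to Nfil3. The Gm52825 window shown held an AP-1 match at −43, inside the region assigned to Ssh1. The Osmr window held an AP-1 match at 3 bases past the start, beyond both the printed bases and the chosen region, and the Ntf3 window held none. Of all 32851 windows of this length, 18.5% held the NF-kB letters, 10.8% C/EBP, 8.30% STAT, 7.81% AP-1, 6.85% the glucocorticoid receptor letters, 3.65% FOXA, 1.87% the direct repeat, 0.801% HNF1 and 0.475% HNF4. A match is a run of letters and not a measured binding site.

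The levels of the 331 regions by group were as follows. The median region had 3.26 scaled tags in C26 PBS, 7.45 in C26 pre-cachexia and 16.4 in C26 cachexia. In the other cachexia model it had 22.2 in 8025 cachexia, against 3.61 in 8025 PBS. The ratio of the cachexia mean to the PBS mean had a median of 5.28 over the regions in C26 (range 2.47 to 58.4) and of 6.50 in 8025 (range 2.57 to 103). Every cachexia library was above every PBS library for 322 regions in C26 and for 329 in 8025. These figures restate the choice of the regions. What the choice did not fix is the relation between both models. The mean was higher in 8025 cachexia than in C26 cachexia for 242 of 331 regions, with a median ratio of 1.30. The ratio was at least 2 for 49 and at most 0.5 for 6. The same order held over the 32613 low regions, with medians of 4.11 in 8025 cachexia and 3.315 in C26 cachexia. Strain and tumor line differ between both models, and this pair was not tested.

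**Figure D1:**
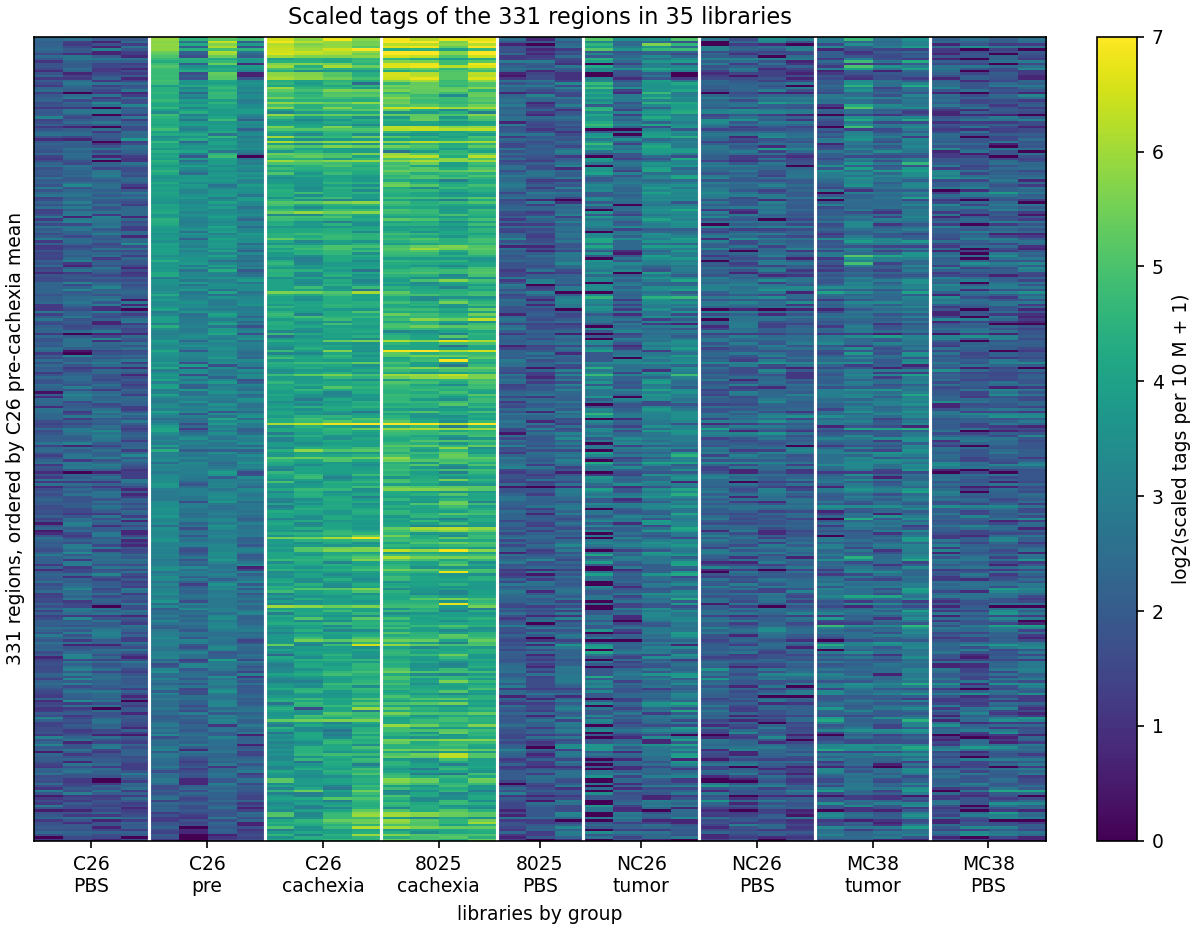
Signal of the 331 regions (rows, ordered by the C26 pre-cachexia mean) in the 35 libraries (columns, by group), as log2 of scaled tags plus 1. The C26 and 8025 cachexia columns are high by choice of the regions; the C26 pre-cachexia columns differ among themselves, and the NC26 and MC38 tumor columns stand a little above their PBS columns.

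The groups that the choice did not use fell between PBS and cachexia. The median region had 6.03 scaled tags in NC26 tumor, against 3.63 in NC26 PBS, and 5.10 in MC38 tumor, against 3.36 in MC38 PBS. Over the 32613 low regions the group medians were 2.90 to 4.11 in all 9 groups. At the level of 12 or more that defined opening, C26 pre-cachexia had 49 of the 331 regions (14.8%, against 0.242% of the low regions), NC26 tumor 18 (5.44%, against 0.101%) and MC38 tumor 9 (2.72%, against 0.107%). Neither NC26 PBS nor MC38 PBS had any.

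Medians per library show how even these groups were. NC26 tumor libraries had medians of 5.76, 3.85, 6.05 and 7.0, against 3.32, 3.15, 4.05 and 3.34 in NC26 PBS. MC38 tumor libraries had 3.90, 4.93, 3.93 and 5.93, against 3.25, 2.64, 3.48 and 3.37 in MC38 PBS. In NC26, tumor replicate 2 fell within the range of PBS and the other 3 libraries lay above it, and in MC38 all 4 tumor libraries lay above all 4 PBS libraries. Both statements turned under the TMM scaling used for the tests: NC26 tumor replicate 2 then had a median of 4.78, above the highest NC26 PBS library at 4.58, and MC38 tumor replicate 3 one of 3.46, below the highest MC38 PBS library at 3.50. The C26 cachexia libraries had medians of 15.6, 15.8, 18.15 and 18.9, and the 8025 cachexia libraries of 23.7, 21.1, 20.2 and 22.1.

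**Figure D2:**
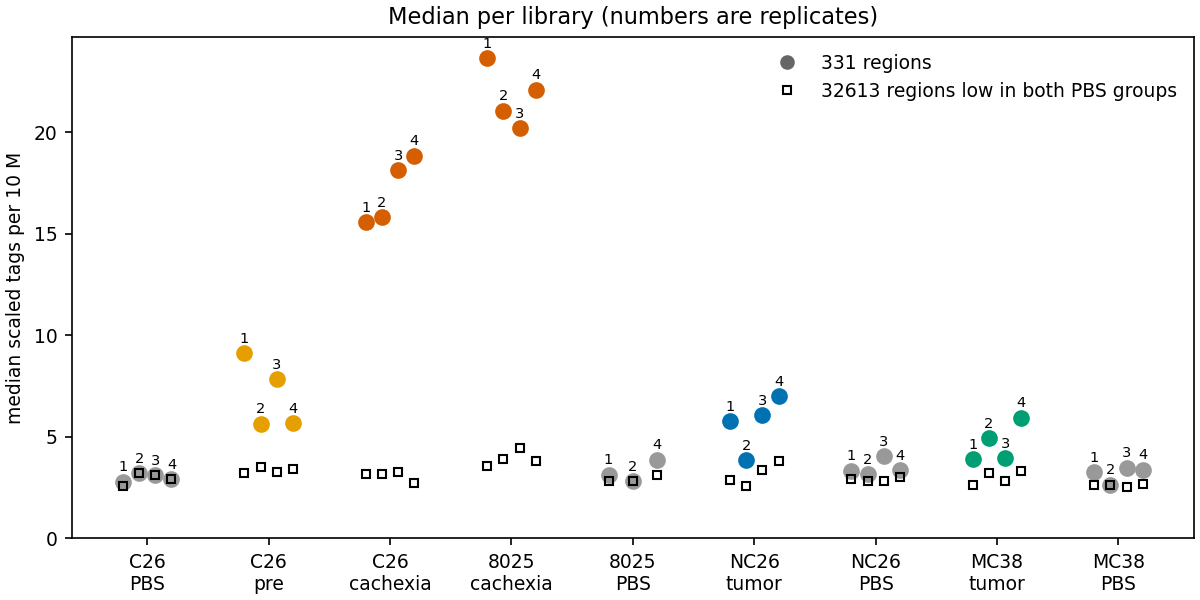
Median scaled tags per library over the 331 regions and over the 32613 regions low in both PBS groups, by group. The 331 regions stand above the low regions in C26 pre-cachexia (5.64 to 9.11) and in the tumor groups, while the low regions have group medians of 2.90 to 4.11.

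The pre-cachexia libraries stood apart from each other before any test. Their medians over the 331 regions were 9.11, 5.64, 7.84 and 5.68 scaled tags, and 114, 29, 81 and 13 regions reached 12. For 171 regions both replicate 1 and replicate 3 were above both replicate 2 and replicate 4. This grouping of replicates follows the medians just given and was not planned, and the share over all regions was not counted. Replicates 1 and 3 alone reached 12 at 46 regions and replicates 2 and 4 alone at 1 region, while 5 regions reached 12 in all 4 libraries and 140 in at least 1. By group mean, 67 regions were still under 5 in pre-cachexia, 215 lay between 5 and 12 and 49 were at 12 or more. The pre-cachexia mean was 43% of the cachexia mean for the median region, with quartiles of 29.9% and 56.2% and a range of 5.11% to 128%. It was over 50% for 115 regions and under 25% for 58. Because of the spread between these animals, each count of calls in pre-cachexia is given with the effect of leaving out a library.

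The acute-phase genes gave the largest group among the gene lists used. Of 657 regions nearest to 44 acute-phase genes, 18 (2.74%, against 0.186% of all regions) were among the 331: 6 at Saa2, 5 at Saa1, 2 each at Apcs and Cp, and 1 each at Fetub, Orm1 and Kng1. The remaining genes of the list had none, which says only that their regions did not meet all 4 limits, since regions already open in PBS could not.

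Saa1 and Saa2 encode serum amyloid A, an apolipoprotein of high-density lipoprotein that the liver releases in the acute phase. Their 11 regions lay in 3 blocks within 16.3 kb, chr7:46739134-46755465 (mm10), mostly at the ends of both genes. The genes are near-identical copies, so reads could be assigned to the wrong copy. The region chr7:46739308-46739708 at the end of Saa1 had 3.20, 2.55, 0.62 and 5.07 scaled tags in C26 PBS, 62.7, 3.53, 91.3 and 1.14 in C26 pre-cachexia, and 115, 90.5, 66.4 and 50.4 in C26 cachexia. Pre-cachexia replicates 1 and 3 were within the range of cachexia and replicates 2 and 4 within the range of PBS. The region had 149, 163, 51.6 and 157 in 8025 cachexia, against 2.49, 2.82 and 4.12 in 8025 PBS. In the weight-stable cohorts it had 17.3, 5.99, 8.40 and 3.82 in NC26 tumor, against 2.49, 5.25, 8.51 and 3.03 in NC26 PBS, and 9.43, 3.70, 7.85 and 5.27 in MC38 tumor, against 5.85, 7.49, 5.69 and 6.40 in MC38 PBS. Tumor and PBS libraries overlapped in both weight-stable cohorts.

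The region chr7:46754855-46755255 at the end of Saa2 was likewise high in pre-cachexia replicates 1 and 3. It had 3.42, 2.87, 0.62 and 1.45 scaled tags in C26 PBS, 42.1, 3.53, 69.5 and 6.24 in C26 pre-cachexia and 92.4, 87.0, 71.9 and 59.3 in C26 cachexia. It had 153, 137, 51.15 and 146 in 8025 cachexia, against 2.18, 1.41 and 2.83 in 8025 PBS. In 8025 cachexia replicate 3 was the lowest library at both regions, though above every PBS library. The Saa2 region had 2.88, 2.57, 3.70 and 4.14 in NC26 tumor, against 2.07, 2.10, 1.62 and 2.12 in NC26 PBS, without overlap, and 3.25, 0.99, 3.08 and 4.28 in MC38 tumor, against 1.30, 2.20, 1.90 and 3.03 in MC38 PBS. Over all 11 regions, means ran from 29.9 to 80.7 in C26 cachexia and from 60.8 to 130.0 in 8025 cachexia, against 1.24 to 3.43 in C26 PBS and 1.14 to 3.34 in 8025 PBS.

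Fetub encodes fetuin-B, a protease inhibitor secreted by the liver. Its region chr16:22914347-22914747, in intergenic sequence upstream of the gene, had 4.27, 5.10, 3.10 and 2.90 scaled tags in C26 PBS, 57.9, 22.6, 34.6 and 29.8 in C26 pre-cachexia and 91.6, 53, 114 and 54.2 in C26 cachexia. All 4 pre-cachexia libraries were above all PBS libraries, unlike at the Saa1 region. The region had 117, 74.4, 108 and 101 in 8025 cachexia, against 4.99, 0.71 and 5.14 in 8025 PBS. It had 34.5, 10.3, 11.1 and 33.1 in NC26 tumor, against 5.81, 2.10, 9.73 and 7.28 in NC26 PBS, without overlap. That log2 difference was 1.51 ± 0.46 (SE, limma adjusted p = 0.21) and was not called. In MC38 tumor it had 6.51, 25.9, 5.33 and 10.5, against 3.25, 5.29, 3.16 and 5.39 in MC38 PBS, where 1 tumor library lay below the highest PBS library.

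The remaining acute-phase regions were lower. Apcs encodes serum amyloid P component, and the higher of its 2 overlapping regions had 25.4, 17.8, 14.9 and 13.0 scaled tags in C26 cachexia, against 1.28, 0, 0.62 and 0.72 in C26 PBS, with 6.97, 8.11, 17.3 and 2.27 in pre-cachexia. Orm1 encodes alpha-1-acid glycoprotein, and its region had 22.4, 20.6, 12.6 and 5.14 in C26 cachexia, against 2.13, 5.42, 3.71 and 2.17 in C26 PBS, where the groups overlapped. The Kng1 region, in the last exon of kininogen, averaged 17.1 ± 1.67 (SD, n = 4) in 8025 cachexia, against 4.80 ± 3.43 (SD, n = 3) in 8025 PBS. Cp encodes the copper carrier ceruloplasmin. The higher of its overlapping regions differed from the others in pre-cachexia, where it averaged 3.40 ± 1.12 (SD, n = 4), close to 2.84 ± 0.955 in C26 PBS. Its mean was lower in NC26 tumor, at 4.04 ± 3.04, than in NC26 PBS, at 7.62 ± 4.07 (SD, n = 4 each), and the groups overlapped. These regions were described after their values were seen.

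Of 736 regions nearest to 35 genes of IL-6/STAT3 and NF-kB signaling, 10 (1.36%) were among the 331. Osmr encodes the receptor subunit that binds oncostatin M, a cytokine of the IL-6 family. The region over its promoter, chr15:6874433-6874833, had 4.27, 2.23, 3.10 and 1.81 scaled tags in C26 PBS, 10.2, 6.35, 12.4 and 5.96 in C26 pre-cachexia and 18.5, 10.7, 17.5 and 15.4 in C26 cachexia. Every pre-cachexia library was above every PBS library. The region had 24.2, 24.2, 20.2 and 30.8 in 8025 cachexia, against 6.54, 2.12 and 2.83 in 8025 PBS. It averaged 5.20 ± 2.60 in NC26 tumor, against 3.59 ± 1.47 in NC26 PBS, and 4.22 ± 1.29 in MC38 tumor, against 3.59 ± 1.76 in MC38 PBS (SD, n = 4 each), with overlap in both cohorts.

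Tab2, an adaptor that links receptor signals to the kinase TAK1, had 5 regions. The highest, chr10:8063384-8063784, lay 107461 bp upstream and had 2.13, 3.82, 8.67 and 2.17 scaled tags in C26 PBS, 18.5, 10.9, 22.2 and 7.09 in C26 pre-cachexia and 54.4, 45.9, 39.5 and 55.5 in C26 cachexia. It was 1 of the regions higher in C26 than in 8025, with 43.8, 28.1, 23.4 and 27.9 in 8025 cachexia, against 4.36, 0.71 and 3.60 in 8025 PBS. Cebpd encodes the transcription factor C/EBP delta. Its 2 overlapping regions lay in an intron of another gene at 97117 and 97302 bp from its start, and the higher had 13.3 ± 3.65 in C26 cachexia, against 2.86 ± 0.469 in C26 PBS, and 28.9 ± 11.9 (SD, n = 4) in 8025 cachexia, against 4.05 ± 0.732 (SD, n = 3) in 8025 PBS. Il1rn encodes the antagonist of the interleukin-1 receptor and Il1r1 the receptor itself. Their regions averaged 13.0 in C26 cachexia, against 3.01 (Il1rn) and 2.25 (Il1r1) in C26 PBS. The decoy receptor gene Il1r2, not on the list, had a region in an intron with 21.1, 29.3, 21.7 and 24 in C26 cachexia, against 3.20, 5.74, 2.17 and 2.90 in C26 PBS. The Osmr, Cebpd, Il1rn and Il1r1 regions, and the Klf9 region below, were described after their values were seen.

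Of 886 regions of 27 gluconeogenesis and glucocorticoid response genes, 7 (0.790%) were among the 331, 6 of them at Igfbp1 and 1 at Klf9. Igfbp1 encodes an insulin-like growth factor binding protein that insulin represses and fasting induces. Its region chr11:7203822-7204222, 6235 bp downstream of the start, had 3.84, 0.64, 0.62 and 3.26 scaled tags in C26 PBS, 7.77, 2.82, 5.67 and 5.11 in C26 pre-cachexia and 39.3, 7.12, 26.2 and 93.3 in C26 cachexia. Cachexia libraries differed among themselves by more than 10-fold, and the lowest was under the highest pre-cachexia library. In 8025 cachexia the region had 56.5, 39.3, 29.3 and 32.3, against 2.18, 0.71 and 11.3 in 8025 PBS. It had 19.2, 7.40, 9.53 and 7.25 in MC38 tumor, against 4.55, 8.37, 12.6 and 6.73 in MC38 PBS, with overlap. Together with a region of the predicted gene Gm11985, the Igfbp1 regions formed a run of 7 within 59.3 kb whose pre-cachexia means stayed at 1.44 to 5.34, against 12.3 to 41.5 in C26 cachexia and 1.31 to 2.61 in C26 PBS.

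Klf9 encodes a zinc finger factor induced by glucocorticoids. Its region, 173566 bp upstream, had 40.2, 34.9, 37.5 and 36.1 scaled tags in 8025 cachexia, against 0.31, 0 and 0.77 in 8025 PBS, and 10.8, 14.2, 17.8 and 27.4 in C26 cachexia, against 0.85, 2.55, 1.24 and 2.17 in C26 PBS. The AP-1 and immediate early list gave 2 of 399 regions (0.501%), at Klf4 and Gadd45g. The Klf4 region, 199696 bp upstream of this zinc finger factor, had 13.9, 7.05, 12.4 and 7.95 in C26 pre-cachexia and 17.3, 4.28, 13.8 and 12.7 in NC26 tumor, against 3.32, 5.60, 1.62 and 4.25 in NC26 PBS, while MC38 tumor averaged 2.10, against 2.79 in MC38 PBS. Gadd45g, a gene of growth arrest, showed another pattern. Its region averaged 44.6 ± 4.99 in C26 cachexia and 4.61 ± 2.35 in pre-cachexia, and had 18.2, 3.45, 3.36 and 21.7 in MC38 tumor, against 0.65, 4.41, 10.7 and 7.75 in MC38 PBS, with overlap.

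The clock list gave 2 of 300 regions (0.667%), both overlapping ones upstream of Nfil3 and the site of the Gm33424 sequence above. The higher had 71.3, 46, 46.3 and 41 scaled tags in 8025 cachexia, against 3.12, 3.88 and 3.09 in 8025 PBS, and 16.1, 19.0, 24.9 and 34.3 in C26 cachexia, against 3.42, 5.10, 4.33 and 2.90 in C26 PBS. In MC38 tumor replicate 2 it reached 20.7, while the other 3 tumor libraries had 3.90, 3.93 and 9.55, against 2.60, 5.29, 1.58 and 5.05 in MC38 PBS. The lipogenesis and glycolysis list gave 1 of 412 (0.243%), at Insig2, which encodes a protein that holds back SREBP processing. Regions nearest to genes of the stress response and unfolded protein lists (322 regions), amino acid metabolism (682), PPARalpha (362) and hepatocyte transcription factors (592) held none. The 331 regions are 0.186% of all regions, and at that share lists of these sizes would hold few. Regions already open in PBS could not be chosen.

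Ranked by the lower of their C26 and 8025 cachexia means, the first region was not at an acute-phase gene, while in 8025 cachexia alone the Saa1 region above was the highest. Adamts2 encodes a protease that trims procollagen, and its region chr11:50650105-50650505 in an intron had 1.71, 1.91, 3.10 and 3.26 scaled tags in C26 PBS, 8.58, 2.12, 13.2 and 6.24 in C26 pre-cachexia and 66.8, 79.1, 111 and 131 in C26 cachexia. All pre-cachexia libraries were far below all cachexia libraries. It had 143, 119, 77.3 and 171 in 8025 cachexia, against 4.36, 5.29 and 1.54 in 8025 PBS. NC26 tumor had 5.76, 3.42, 5.38 and 2.55, against 0.83, 1.40, 2.43 and 3.03 in NC26 PBS, and MC38 tumor had 6.51, 4.69, 3.36 and 9.22, against 3.25, 1.76, 5.69 and 4.04 in MC38 PBS. Its pre-cachexia mean was 7.77% of the cachexia mean.

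Other regions with high levels in both models lay near genes of unlike function. The higher of the overlapping Ccnl1 regions (cyclin L1, which takes part in RNA splicing) averaged 58.5 ± 9.48 scaled tags in C26 cachexia, against 2.01 ± 1.66 in C26 PBS, and 63.3 ± 9.64 (SD, n = 4) in 8025 cachexia, against 3.20 ± 1.13 (SD, n = 3) in 8025 PBS. The Cers6 region (ceramide synthase 6) averaged 38.4 ± 7.34 in C26 cachexia and 39.6 ± 12.9 in 8025 cachexia, against 3.83 ± 0.70 and 4.40 ± 1.25 in their PBS groups. The Qsox1 region (quiescin sulfhydryl oxidase, which forms disulfides in secreted proteins) averaged 39.9 ± 8.14 and 37.3 ± 11.1, against 3.98 ± 1.86 and 3.15 ± 0.898. Gsx2 and Isl1 encode homeodomain factors of development. Their intergenic regions varied between animals: the Gsx2 region had 11.6, 33.2, 49.9 and 47 in C26 cachexia and 77.8, 58.9, 115 and 53 in 8025 cachexia, and the Isl1 region had 12.1, 45.1, 35 and 46.6 in C26 cachexia and 42.6, 40.2, 16.0 and 40.7 in 8025 cachexia. The Gsx2 region averaged 2.41 in C26 PBS and 3.98 in 8025 PBS, and the Isl1 region 2.15 and 1.49.

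**Figure D3:**
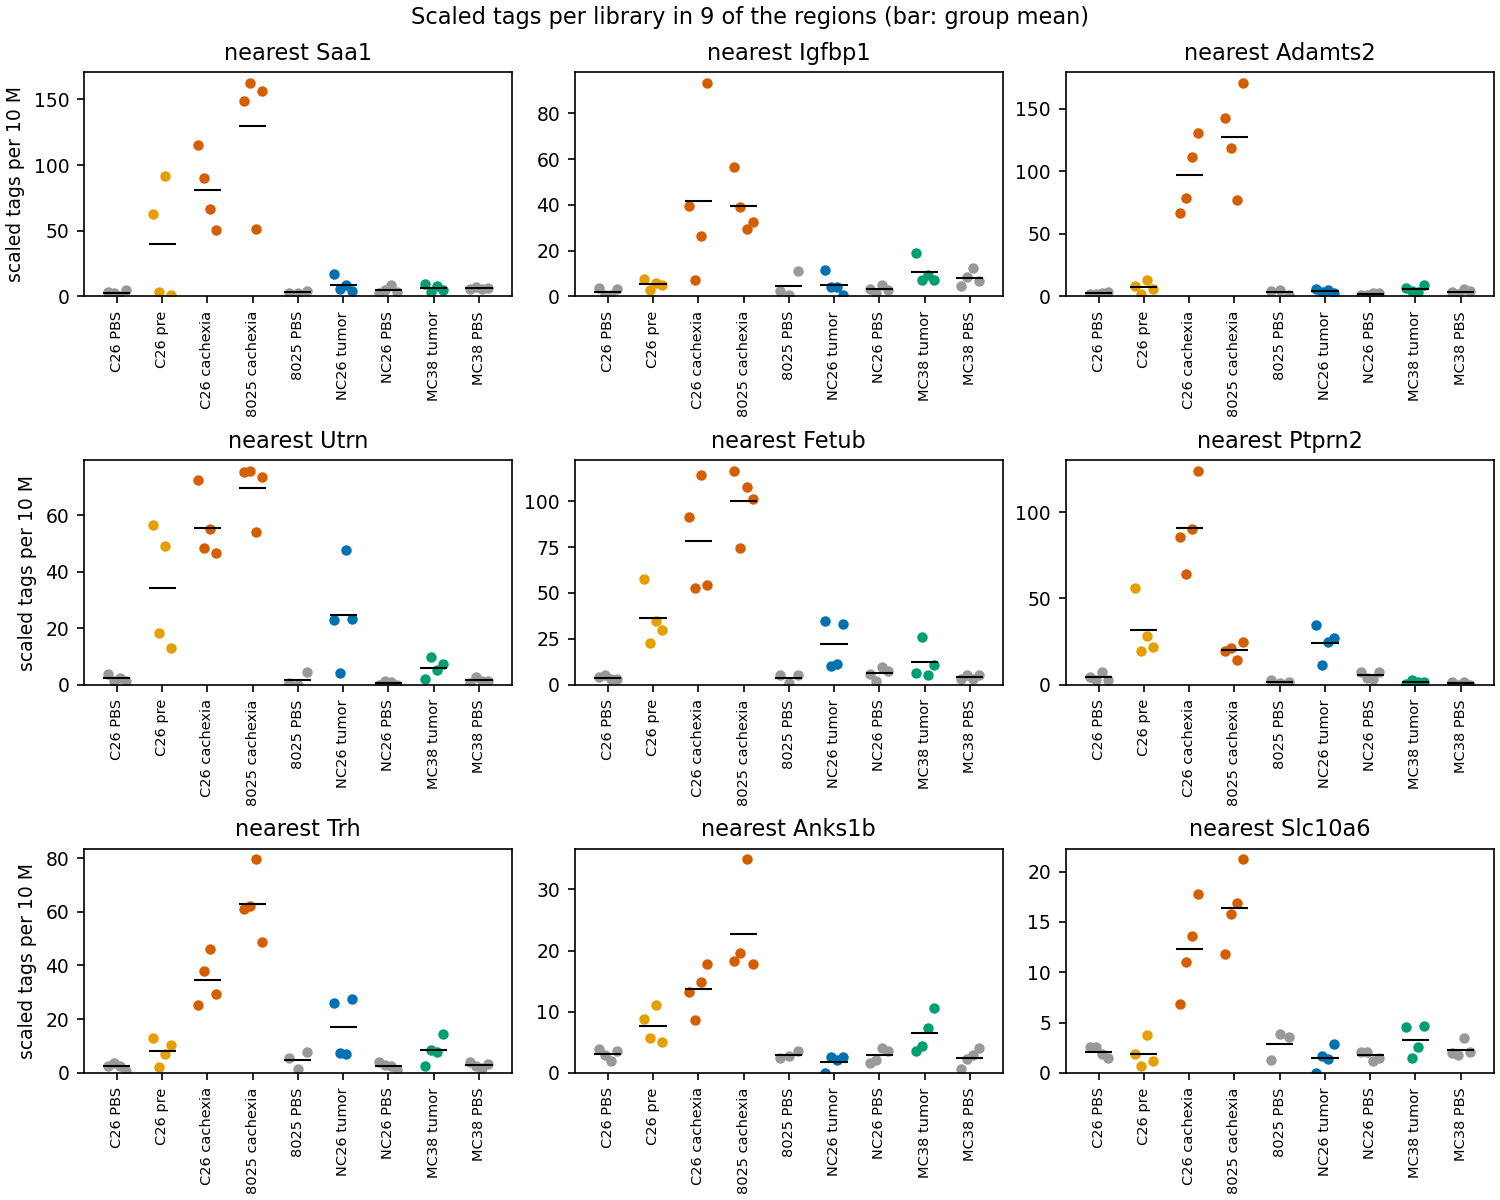
Scaled tags per library (points) and group means (bars) of regions at Saa1, Igfbp1, Adamts2, Utrn, Fetub, Ptprn2, Trh, Anks1b and Slc10a6 in the 9 groups. At Saa1 the pre-cachexia points split between 1.14 and 91.3, at Fetub all 4 lie at 22.6 or more, and at Adamts2 all 4 lie at 13.2 or less.

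Leaving aside a region of the non-coding gene G530011O06Rik, the regions with the lowest mean signal in pre-cachexia were 1 each at Igfbp1, Adamts2, Cyp17a1 and Slc10a6. Cyp17a1 encodes a steroid hydroxylase, and its region had 4.27, 3.82, 3.71 and 3.62 scaled tags in C26 PBS, 1.61, 0.71, 3.24 and 1.70 in C26 pre-cachexia and 13.7, 17, 14.9 and 19.9 in C26 cachexia. Every pre-cachexia library was below every PBS library. The Slc10a6 promoter region, whose sequence is shown above, had 2.56, 2.55, 1.86 and 1.45 in C26 PBS, 1.88, 0.71, 3.78 and 1.14 in C26 pre-cachexia and 6.86, 11.1, 13.6 and 17.8 in C26 cachexia. It had 11.8, 15.8, 16.8 and 21.2 in 8025 cachexia, against 1.25, 3.88 and 3.60 in 8025 PBS. At the other promoter regions, Cxcl14 had 16.1, 1.41, 9.19 and 3.41 in pre-cachexia and averaged 25.2 ± 11.6 in C26 cachexia, against 4.08 ± 1.92 in C26 PBS, and 61.5 ± 3.89 in 8025 cachexia, against 3.66 ± 2.94 in 8025 PBS. The Cxcl14 region had 3.58, 15.8, 15.7 and 20.4 in MC38 tumor, against 3.25, 5.29, 1.90 and 2.02 in MC38 PBS. Ntf3 averaged 13.6 ± 4.75 in C26 cachexia, against 2.81 ± 0.940 in C26 PBS. The Ssh1 region, site of the Gm52825 sequence, averaged 17.9 ± 2.01 in C26 cachexia, against 4.78 ± 1.68 in C26 PBS. The Cxcl14, Ntf3 and Ssh1 regions were named after their values were seen.

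Tests used limma on log2 of scaled tags plus 1, over 176957 regions, with Benjamini-Hochberg adjustment, and an adjusted p under 0.05 counts as called. On this scale changes of low regions are understated. All 331 regions passed the filter on low values, which was set over all 35 libraries, the cachexia libraries included. Over the compared groups alone 288 would have passed for C26 pre-cachexia against NC26 PBS, 308 for it against NC26 tumor, 233 for NC26 tumor and 241 for MC38 tumor. For NC26 PBS against MC38 PBS it was 195. A count among the 331 is read against the share of all regions called. C26 pre-cachexia against NC26 PBS compares animals of the same strain from different cohorts. Neither group served to choose the regions, but C26 PBS and C26 cachexia, of the same cohort as C26 pre-cachexia, did. In this comparison 32 of the 331 regions rose and 0 fell, where 0.701% of all regions were called higher and 0.0763% lower. The 32 lay in 29 blocks of overlapping regions with 28 nearest genes. The median log2 difference was 0.86 over the 331 regions and 0.01 over all regions, 297 of 331 (89.7%) were above 0, where 51.7% of all regions were, and every pre-cachexia library was above every NC26 PBS library for 113 (34.1%, against 5.08% of all regions). At an unadjusted p under 0.05, 171 were higher and 1 lower, and without C26 pre-cachexia replicate 1 the number in either direction was 126. Of all 176957 regions, 19551 were under this p in either direction in the main fit. The regions of neutrophil marker genes averaged 12.4 to 13.3 scaled tags in C26 pre-cachexia libraries, against 10.2 to 11.9 in NC26 PBS, and their part in the result was not tested.

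The count of 32 depended on single libraries, with 12 called without C26 pre-cachexia replicate 1 and 20 without NC26 PBS replicate 2. Within the MUC59 library series, which holds all pre-cachexia libraries and 2 NC26 PBS libraries, 6 were called. Over all regions 477, 831 and 225 were called higher in these 3 settings, in place of 1240.

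The region with the lowest adjusted p lay between genes, chr10:12278351-12278751, with the start of Utrn, which encodes the cytoskeletal protein utrophin, as the nearest but far away. It had 56.6, 18.3, 49.2 and 13.1 scaled tags in C26 pre-cachexia, against 0, 1.40, 0.81 and 0 in NC26 PBS, without overlap. The log2 difference of this Utrn region was 4.49 ± 0.55 (SE, limma adjusted p = 2.3e-05). It had 72.3, 48.2, 55.1 and 46.6 in C26 cachexia and 75.4, 75.6, 53.9 and 73.6 in 8025 cachexia. The call held in each of the alternatives tried, and leaving out any 1 library did not end it.

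The Msn region, 22966 bp upstream of the gene for moesin, which links membrane proteins to actin, had 15.8, 7.05, 6.22 and 6.53 scaled tags in C26 pre-cachexia, against 0, 0.70, 0 and 0.61 in NC26 PBS. Its log2 difference was 3.09 ± 0.48 (SE, limma adjusted p = 1.7e-04). The Ptprn2 region, in an intron of a phosphatase-like protein of secretory vesicles, had 56.0, 19.8, 28.4 and 21.9 in pre-cachexia, against 7.47, 3.85, 3.24 and 7.28 in NC26 PBS, and rose by 2.24 ± 0.37 (limma adjusted p = 4.6e-04). The groups did not overlap at either region, and both calls held in every alternative. The lower of the Ccnl1 regions had 21.4, 4.94, 13.2 and 7.95, against 1.66, 1.05, 2.03 and 2.12 in NC26 PBS, and rose by 2.06 ± 0.39 (limma adjusted p = 0.0024), also in every alternative. The Tsg101 region, in an intron of a gene for a component of the ESCRT-I sorting complex, had 25.7, 19.0, 16.2 and 7.66, against 1.66, 4.90, 1.62 and 1.21, and rose by 2.40 ± 0.45 (limma adjusted p = 0.0026). Its mean was higher in pre-cachexia than in cachexia, where it had 19.5, 10.3, 12.3 and 11.7, and its call was lost within the MUC59 series.

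Of the acute-phase regions, those at Fetub and Saa2 were called. The Fetub region rose by 2.34 ± 0.49 on the log2 scale against NC26 PBS (limma adjusted p = 0.014) and lost the call without C26 pre-cachexia replicate 1, NC26 PBS replicate 1 or NC26 PBS replicate 2. The Saa2 region chr7:46754855-46755255 rose by 2.65 ± 0.59 (limma adjusted p = 0.021), with replicate 2 at 3.53 against a highest NC26 PBS value of 2.12, and lost the call without any 1 of the same 3 libraries, within the MUC59 series and with the compared groups alone. The Saa1 region had a log2 difference of 1.37 ± 0.86 (limma adjusted p = 0.61), as replicates 2 and 4, at 3.53 and 1.14, were not above NC26 PBS. Regions at Nkx6-2, Slc13a5, Pcdh1, Atp11a, Svep1 and Slc6a6 were among the other calls. Slc13a5 encodes a citrate transporter, Slc6a6 the taurine transporter and Atp11a a lipid flippase. Without 1 library the call was lost in 4 of 8 fits for the Svep1 region and in 2 of 8 for Pcdh1. With the compared groups alone, the Svep1 region did not pass the filter on low values. Those of this list outside the rule for named regions were picked after their values were seen.

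C26 pre-cachexia was also set against NC26 tumor, a tumor of the same strain without weight loss. Here 3 of the 331 regions rose and 0 fell, where 0.0356% of all regions were called higher and 0.00226% lower. The median log2 difference was 0.49 over the 331 regions and 0.05 over all, and 265 (80.1%) were above 0, where 56.5% of all regions were. Every pre-cachexia library was above every NC26 tumor library for 12 (3.63%, against 1.64% of all regions), and at an unadjusted p under 0.05, 68 were higher and 9 lower. Of all 176957 regions, 19393 were under this p in either direction. In simulated data limma called more unchanged regions in this comparison, and in NC26 tumor against NC26 PBS, than its threshold allows, and fewer with edgeR or without the shallow NC26 tumor replicate 1. The Anks1b region had 8.84, 5.64, 11.1 and 5.11 scaled tags in pre-cachexia, against 0, 2.57, 2.02 and 2.55 in NC26 tumor, without overlap, and a log2 difference of 2.14 ± 0.38 (SE, limma adjusted p = 0.019). Another of the calls was at the predicted gene 8430430B14Rik. The count was 0 with edgeR, 4 with DESeq2 and 0 without C26 pre-cachexia replicate 1 or 3 or the shallow NC26 tumor replicate 1, which was at 0 in the Anks1b region, and 6 without NC26 tumor replicate 2. Within the MUC59 series it was 9 higher and 1 lower. Over all regions 1013 were then higher and 34 lower, in place of 63 and 4 in the main fit. Without NC26 tumor replicate 2, 1070 of all regions were higher.

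In NC26 tumor against NC26 PBS, 6 of the 331 regions rose and 0 fell, where 0.138% of all regions were called higher and 0.0407% lower. The median log2 difference was 0.40 over the 331 regions and −0.04 over all (0.07 over all with scaling by library totals), and 248 (74.9%) were above 0, where 44.8% of all regions were. Every tumor library was above every PBS library for 35 (10.6%, against 2.21% of all). The Utrn region had 23, 4.28, 47.7 and 23.2 scaled tags in NC26 tumor, against 0, 1.40, 0.81 and 0 in NC26 PBS, and rose by 3.68 ± 0.52 on the log2 scale (SE, limma adjusted p = 5.8e-04). The Ptprn2 region had 34.5, 11.1, 24.5 and 27.1, against 7.47, 3.85, 3.24 and 7.28, and rose by 1.83 ± 0.35 (limma adjusted p = 0.0087). Neither region overlapped between the groups. Msn (10.1, 1.28, 10.4 and 3.82, against 0, 0.70, 0 and 0.61) rose by 2.19 ± 0.45 (limma adjusted p = 0.018). With the compared groups alone, the Msn region did not pass the filter on low values, so it was testable only through the other groups. Trh, which encodes thyrotropin-releasing hormone, had 25.9, 7.28, 7.06 and 27.4, against 4.15, 2.80, 2.43 and 1.21, and rose by 2.0 ± 0.45 (limma adjusted p = 0.046). Pcdh1, a protocadherin gene, had 5.76, 5.14, 15.5 and 7.64, against 2.49, 2.80, 0 and 1.82, and rose by 1.76 ± 0.41 (limma adjusted p = 0.049). The remaining call was at the predicted gene 1700129C05Rik.

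Leaving out 1 of the 8 libraries in turn ended the NC26 call in 7 fits for Pcdh1 (highest limma adjusted p = 0.23), in 6 for Trh (0.27), in 4 for Msn (0.17) and in 3 for Ptprn2 (0.089). It ended in none for Utrn. The NC26 count was 2 with edgeR and 12 with DESeq2, 0 within the MUC59 libraries and 9 within the MUC64 libraries. Over all regions 124, 385, 31 and 219 were called higher in these settings, in place of 244, and 561 without NC26 tumor replicate 2. The count among the 331 regions also moved with single libraries. It was 2 without NC26 tumor replicate 1 or NC26 PBS replicate 3, 3 without NC26 tumor replicate 3, NC26 tumor replicate 4 or NC26 PBS replicate 4, and 21 without NC26 tumor replicate 2.

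In MC38 tumor against MC38 PBS, limma called 0 of the 331 regions in either direction, where 0.0181% of all regions were called higher and 0.000565% lower. At an unadjusted p under 0.05, 66 were higher and 0 lower, where 11178 of all 176957 regions were under this p in either direction. edgeR called 0 of the 331 regions and DESeq2 4, where they called 39 and 299 of all regions higher. Within the MUC64 libraries 1 was called, 2 without MC38 PBS replicate 1, and 1 each without MC38 PBS replicate 3 or MC38 tumor replicate 3. Over all regions these fits called 13, 65, 29 and 19 higher, where the main fit called 32. The median log2 difference was 0.39 over the 331 regions and 0.00 over all, 267 (80.7%) were above 0, where 50.5% of all regions were, and every tumor library was above every PBS library for 24 (7.25%, against 1.61%). The lowest adjusted p was at Ctnnbl1, a gene for a splicing-associated protein, with 5.20, 7.40, 5.05 and 6.59 scaled tags in MC38 tumor, against 4.22, 0, 2.21 and 0.67 in MC38 PBS, and a log2 difference of 1.60 ± 0.37 (SE, limma adjusted p = 0.13). The Utrn region had 1.95, 9.87, 5.05 and 7.25 in MC38 tumor, against 0.65, 2.64, 1.26 and 1.35 in MC38 PBS. The Ptprn2 region had 0.65, 2.47, 1.68 and 1.32, against 1.30, 0, 1.58 and 0, so that it was near 0 in both.

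A test of the NC26 effect minus the MC38 effect called 0 of the 331 regions, where 0.000565% of all regions were called in either direction together. At an unadjusted p under 0.05, 11 were higher and 14 lower, and edgeR and DESeq2 called 0 as well. In either direction 25 of the 331 regions and 11659 of all 176957 were under this p, which are similar shares. The median difference of effects was −0.02 over the 331 regions and −0.04 over all, and the sign over the 331 turned with the processing (0.02 with library totals, 0.05 with edgeR, 0.06 with DESeq2 and 0.21 within MUC64). The lowest adjusted p among the 331 was 0.55 (limma), so that a call in NC26 and none in MC38 is not shown to be a difference between them.

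**Figure D4:**
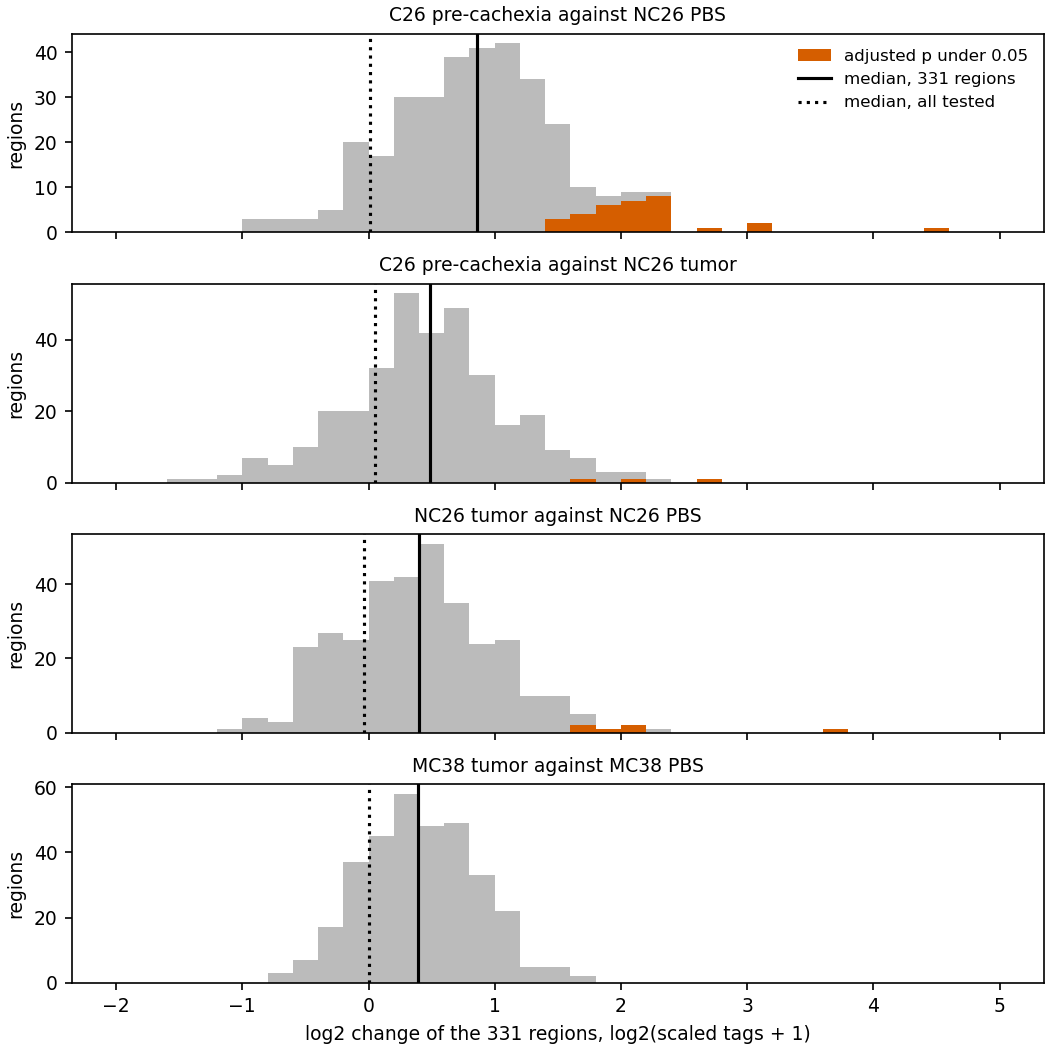
Histograms of the log2 differences of the 331 regions in the tested comparisons, with regions at a limma adjusted p under 0.05 in color. The solid line marks the median of the 331 regions and the dotted line that of all regions: 0.86 and 0.01 for C26 pre-cachexia against NC26 PBS, 0.40 and −0.04 for NC26 tumor and 0.39 and 0.00 for MC38 tumor.

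Control livers of both strains differed at some of the regions. In NC26 PBS (BALB/c) against MC38 PBS (C57BL/6N), where strain and cohort cannot be told apart, 15 regions in 14 blocks were higher and 1 lower, where 4.19% of all regions were called higher and 4.91% lower. The share higher (15 of 331) was near that of all regions, and 210 (63.4%) were above 0, where 51.4% of all regions were. The choice asked for low means in a PBS group of each strain, so differences between controls were limited beforehand. The shares of the 331 regions and of all regions are therefore not a like comparison here. The Ptprn2 region had 7.47, 3.85, 3.24 and 7.28 scaled tags in NC26 PBS, against 1.30, 0, 1.58 and 0 in MC38 PBS, with a log2 difference of 2.08 ± 0.35 (SE, limma adjusted p = 2.0e-05). The same order held in cachexia, with 85.8, 64.1, 90.4 and 124 in C26 cachexia (BALB/c) and 19.5, 21.3, 14.5 and 24.4 in 8025 cachexia (C57BL/6N), a pair that was not tested. The Cpne8 region, in an intron of a copine gene, had 7.88, 7.70, 7.29 and 6.07, against 0.65, 0, 3.79 and 1.35, and differed by 2.11 ± 0.37 (limma adjusted p = 4.9e-05). The Etv6 region, near the gene for a repressor of the ETS family, had 8.30, 8.40, 8.51 and 6.67, against 0.65, 3.53, 2.53 and 2.02, and the Il1r2 region 5.81, 5.60, 5.67 and 5.46, against 1.95, 0, 5.37 and 0.67. The groups did not overlap at any of these regions. The Stk33 region, in an intron of a kinase gene, was lower at 0.41, 2.10, 1.62 and 1.82, against 3.25, 7.05, 6.95 and 6.06, with a log2 difference of −1.40 ± 0.41 (limma adjusted p = 0.019). With the compared groups alone, the Ptprn2 and Stk33 regions did not pass the filter on low values, so both were testable only through the other groups.

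Within the MUC59 libraries 9 were higher and 0 lower, and within MUC64 8 and 4. Over all regions 3029 were higher and 2551 lower within MUC59, and 3383 and 5311 within MUC64. The count lower was 5 without MC38 PBS replicate 1, 3 without NC26 PBS replicate 3 and 0 without MC38 PBS replicate 2 or 3, and it was 2 with edgeR and 3 with DESeq2.

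Most of the 331 regions lay away from promoters. By the annotation deposited with the regions, 161 (48.6%) were intergenic, against 42.6% of the low regions and 33.8% of all regions, and 140 (42.3%) lay in introns, against 49.3% and 46.2%. Promoters held 6 (1.81%), against 2.37% and 12.2%. Sites of transcription termination held 14 (4.23%), against 1.64% and 2.10%, among them regions of Saa1, Saa2 and Igfbp1. The nearest start site was within 1 kb for 8 regions, 1 to 10 kb away for 92 (27.8%, against 19.5% of the low regions), 10 to 100 kb for 176 (53.2%, against 60.2%) and farther for 55 (16.6%, against 16.7%). The median distance was 25.2 kb, against 27.6 kb for the low regions and 15.1 kb for all regions. SINE repeats held 15 (4.53%, against 11.7% of the low regions), LTR repeats 31 (9.37%, against 9.14%) and LINE repeats 15 (4.53%, against 4.99%). The nearest gene was protein-coding for 278 regions, and 130 regions lay upstream and 201 downstream of the nearest start.

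**Figure D5:**
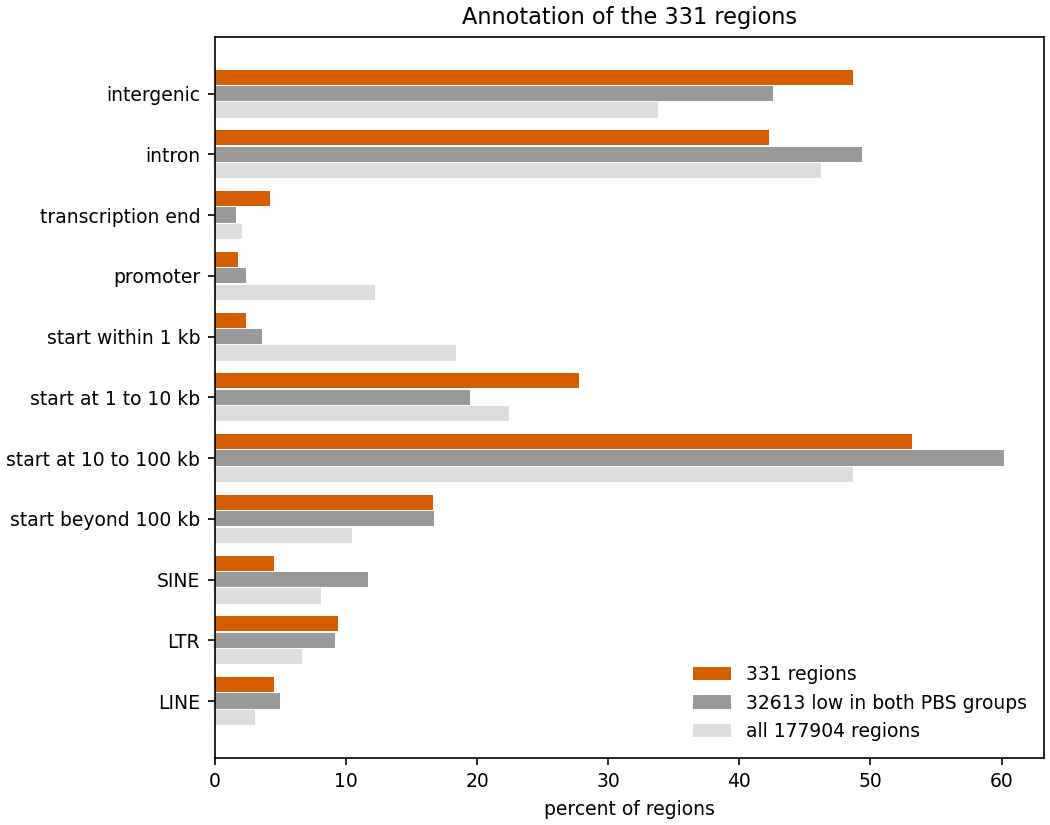
Percent of the 331 regions, of the 32613 regions low in both PBS groups and of all 177904 regions by annotation class. Intergenic sequence holds 48.6% of the 331 regions and promoters 1.81%, where promoters hold 12.2% of all regions.

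The 331 regions were not independent of each other. Windows overlapped at 67 of them, and they merged into 294 blocks, 30 with more than 1 region. They had 251 nearest genes, 202 of them with 1 region, and within 100 kb of each other they formed 240 runs, of which 187 were single regions and 20 held 3 or more (78 regions). After Saa1 and Saa2 (11) and Igfbp1 with Gm11985 (7), the longest was Atp11a with 5 regions in 25.8 kb. Atp11a means ran from 13.6 to 20.6 scaled tags in C26 cachexia, against 2.60 to 4.72 in C26 PBS, and from 13.2 to 37.6 in 8025 cachexia, against 3.19 to 4.36 in 8025 PBS. In pre-cachexia the Atp11a means were 7.64 to 14.7 and in NC26 tumor 4.72 to 15.1, against 2.85 to 4.88 in NC26 PBS, so that this run was nearer to its cachexia level in pre-cachexia than the Igfbp1 run. Ntf3, Adamts2, Ccnl1 and Tab2 had runs of 4.

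The 3 tightest runs held 3 regions each. At Svep1, which encodes a protein of the extracellular matrix, they lay within 1.62 kb, and the highest had 21.6, 18.2, 19.4 and 28.8 scaled tags in C26 cachexia, against 0.85, 1.91, 2.48 and 2.17 in C26 PBS, and 44.4, 36.1, 26.1 and 30.2 in 8025 cachexia, against 1.25, 0.71 and 1.54 in 8025 PBS. At H2afy3, within 1.98 kb, the highest region averaged 16.1 ± 4.59 in C26 cachexia, against 1.58 ± 1.03 in C26 PBS, and 30.0 ± 4.41 in 8025 cachexia, against 1.49 ± 0.407 in 8025 PBS. The third run was at the predicted gene 1700085C21Rik, within 1.73 kb. In pre-cachexia the Svep1 region had 11.3, 4.94, 7.03 and 1.70, and the H2afy3 region 17.4, 8.46, 8.65 and 4.54, so that replicate 4 was the lowest at both.

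Promoters of the nearest genes were mostly open already. Of the 251 genes, 187 had another region within 1 kb of the start, and 137 of these had 12 or more scaled tags in both PBS groups. Their median ratio of cachexia to PBS was 1.15 in C26 and 1.09 in 8025, where all 24403 such promoter regions had 1.06 and 0.988. Both ratios reached 1.5 at 14 of the 137 promoters (10.2%, against 1.25% of all such promoters). These ratios use the same libraries as the choice of the regions and are a description. The Saa1 promoter averaged 75.7 in C26 cachexia, against 17.3 in C26 PBS, and 98.0 in 8025 cachexia, against 15.7 in 8025 PBS. The Apcs promoter averaged 121 in C26 cachexia, against 55.1 in C26 PBS, and 139 in 8025 cachexia, against 49.2 in 8025 PBS. At Igfbp1 the promoter was open in all groups, with 201 in C26 cachexia, against 81.8 in C26 PBS, and 202 in 8025 cachexia, against 133 in 8025 PBS, while the chosen regions behind the gene had means of 1.31 to 2.61 in C26 PBS and 3.03 to 4.74 in 8025 PBS. The promoter regions of Osmr (49.9 in C26 cachexia, against 6.66 in C26 PBS) and Slc10a6 (35.4, against 5.52) stood just over the limit of 5 in PBS beside their chosen neighbors.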

How the data were processed

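The 331 regions, the gene lists and the tests were chosen with earlier results of these data known. Per the submitters' processing notes, reads were aligned to mm10 with BWA 0.7.5a-r405 and processed with SAMtools and HOMER, with settings for duplicates and peak calling not given in the sources used here. Signal, as deposited, is tags in 400 bp around each merged peak; per the file headers, the authors set every library to a total of 10 M. Peaks were merged over libraries, and annotation, nearest gene and distance to its start in bp are the authors' deposited columns, so a named gene is the nearest and may not be the one regulated. Each region's values times the library totals gave whole read ends (100% of values within 0.1 read ends; each end counts 0.5 tag), so depth is known: 11.3 to 23.8 M tags, and 3.47 M in NC26 tumor replicate 1. No column of per-sample values was left unused (0).

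Because the values are normalised, limma-trend with robust empirical Bayes was the main test, on log2 of value divided by its TMM factor, plus a pseudocount of 1. filterByExpr (minimum count 10, minimum total 15) kept 176957 regions, including all 331. The model held the 9 groups and the library-name series as a covariate (MUC59 or MUC64; what the names stand for is not given). P-values were adjusted by Benjamini-Hochberg over all regions tested, at 0.05. As alternatives, edgeR's quasi-likelihood test called 37 of the 331 regions higher in C26 pre-cachexia against NC26 PBS, 2 in NC26 tumor and 0 in MC38 tumor. Over all regions it called 1145, 124 and 39 higher. DESeq2, other scalings, pseudocounts, subsets of libraries, a replicate block and other limits for the choice were also run. Replicate numbers were not used as pairs in the main model. Same-numbered libraries had correlations of their deviations of −0.15 to 0.08, which cannot settle whether samples were paired. NC26 tumor replicates 1, 2 and 3 correlated best with the NC26 PBS library of their own number, at 0.01, 0.08 and 0.04.

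Named regions were the 12 with the highest lower cachexia mean (1 per gene), the 6 highest and 4 lowest in C26 pre-cachexia, up to 5 per direction with the lowest adjusted p in each tested comparison, up to 3 per gene list, and the 3 tightest runs of regions within 100 kb. Predicted genes and small RNAs were named only in runs or as a remaining call. Others are said to have been chosen after their values were seen. Tested on simulated data, limma called more unchanged regions than its threshold allows in comparisons with the shallow NC26 tumor library, and fewer with edgeR or without that library. Distal sequences were not used here. Some regions that the rule names are not reported here. Software was Python 3.11.15 (numpy 2.4.6, pandas 2.3.3, scipy 1.17.1, matplotlib 3.10.9) and R 4.3.3 (DESeq2 1.42.0, edgeR 4.0.16, limma 3.58.1 and the package data.table in version 1.17.8).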

Additional observations from a re-analysis of the deposited data

Results flagged for a closer look

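Of 384 groups of 4 libraries at the named regions, 18 (4.69%) had a library that stood far from the others of its group by Dixon's test, where chance gives about 1 in 20. 5 of the 18 were 8025 cachexia replicate 3. That library was low at Saa1 (51.57 scaled tags), Saa2 (51.15), Utrn (53.89) and Isl1 (16.0), and high at Anks1b (34.94).

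In C26 pre-cachexia, replicate 1 was high at Msn (15.81), replicate 2 low at Gsx2 (2.12), and replicate 3 high at Gadd45g (8.11) and at the Tab2 region chr10:8063679-8064079 (16.48). In MC38 tumor, replicate 2 was high at Cers6 (5.92) and Cpne8 (7.15). Among the PBS groups, the values far from the others were those of NC26 PBS at Saa2 (1.62, replicate 3), Tsg101 (4.90, replicate 2), H2afy3 (2.10, replicate 2) and Etv6 (6.67, replicate 4), of MC38 PBS at Qsox1 (5.29, replicate 2) and Slc10a6 (3.48, replicate 3), and of C26 PBS at the Igfbp1 region chr11:7203207-7203607 (0.62, replicate 3). The PBS values are worth few read ends each.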

How the results depend on the processing

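No call of a named region changed its direction under the alternatives run. The median NC26 effect minus MC38 effect over the 331 regions, −0.02, ranged from −0.18 within MUC59 to 0.21 within MUC64 and was above 0 with library totals, edgeR, DESeq2, a pseudocount of 4 and in some fits without 1 library. The NC26 tumor median over all regions, −0.04, was 0.07 with library totals. The number of regions chosen was 109 with PBS means under 4 and cachexia means of 15 or more, and 932 with limits of 6 and 10; group medians in place of means gave 366. In C26 pre-cachexia against NC26 PBS, the 32 regions called higher became 74 with DESeq2 and 6 within the MUC59 libraries, and 12 to 44 with 1 library left out. Against NC26 tumor, the 3 called higher became 0 with the compared groups alone, 0 with edgeR and 9 (with 1 lower) within MUC59, and 0 to 6 with 1 library left out. In NC26 tumor, the 6 called higher became 2 with the compared groups alone, 2 with edgeR, 12 with DESeq2 and 0 within MUC59, and 2 to 21 with 1 library left out. In MC38 tumor, the 0 called became 4 with DESeq2 and 1 within MUC64, and 0 to 2 with 1 library left out. In NC26 PBS against MC38 PBS, the 15 called higher became 9 with the compared groups alone, 9 within MUC59 and 8 within MUC64, and 12 to 20 with 1 library left out; the 1 called lower became 0, 0 and 4 in those settings, 2 with edgeR and 3 with DESeq2, and 0 to 5 with 1 library left out. Calls over all regions moved in these settings too. In C26 pre-cachexia against NC26 PBS, 1240 higher became 2338 with DESeq2 and 225 within MUC59. Against NC26 tumor, 63 became 1013 within MUC59. In MC38 tumor, 32 became 299 with DESeq2. The cause of these changes was not tested, except that subsets hold fewer libraries. The difference of effects called 0 in every setting.

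The main model did not treat replicate numbers as pairs, and a replicate block was run as an alternative. With the replicate block, 1 region was called against NC26 tumor in place of 3, 27 in place of 32 against NC26 PBS, and 5 in place of 6 in NC26 tumor. Over all regions, 8, 916 and 218 were called higher, in place of 63, 1240 and 244. Counts among the 331 regions in MC38 tumor (0) and between the PBS groups (15 and 1) were as without the block.

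Scaling by library totals moved the median of all regions by 0.12 (log2) in C26 pre-cachexia against NC26 PBS, by 0.11 in NC26 tumor and by −0.11 between the PBS groups. It left 214 of all regions higher and 18 lower in NC26 tumor, in place of 244 and 72, and 4676 higher and 8739 lower between the PBS groups, in place of 7408 and 8686. Fits with 1 library left out were counted once for each called named region. In C26 pre-cachexia the call was lost in 30 and held in 74 against NC26 PBS, and in 6 and 10 against NC26 tumor. It was lost in 20 and held in 20 in NC26 tumor against NC26 PBS, and in 5 and 51 between the PBS groups. Depth limits the PBS levels: at 3.47 M tags, 1 read end is worth 1.44 scaled tags.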
